A study of Mus musculus with 30 samples.

Results

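The comparison described here sets 3 m6A peak lists from Mettl14 knockout mouse embryonic stem cells carrying wild-type METTL14 (KO+WT) beside 3 lists from the knockout itself (KO), 6 of the 15 peak lists in the study. Members were chosen by calls alone. A bin of 100 nt, or a gene, was classed as restored when it was called in all 3 KO+WT lists and in none of the 3 KO lists, and as removed in the reverse case. Of 36999 bins called in any of the 6 lists, 4439 were restored and 553 removed, which are 12.0% and 1.49% of them. Of 11155 genes with a call, 1030 were restored (9.23%) and 109 removed (0.977%).

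Cells of both lines were of the C57BL/6 strain, were grown in serum with leukemia inhibitory factor, and carry the Mettl14 knockout, and the labels name the METTL14 put back as the difference between them. The lines also differ at a locus of chromosome Y, described at the end. The other lines were unmodified wild-type cells (WT) and the knockout rescued with either of a pair of METTL14 forms that lack arginine methylation, KO+5RK and KO+13RK. Each line has 3 libraries from an m6A immunoprecipitation and 3 input libraries. The labels do not say how METTL14 was put back, at what level, or whether a line is 1 clone. Expression in the inputs was not analysed here.

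N6-methyladenosine (m6A) is placed on messenger RNA by a complex in which METTL3 carries the catalytic activity and METTL14 holds the RNA. The mark is best known from the region around stop codons and from 3′ untranslated regions, where reader proteins bind it and shorten the life of many transcripts. In embryonic stem cells it is known for limiting the lifetime of pluripotency transcripts. The antibodies also bind N6,2′-O-dimethyladenosine, which sits beside the cap when a transcript begins with A and is made by another enzyme, and METTL16 methylates a few RNAs such as Mat2a.

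The lines differed in where along genes their peaks lay, as described further on, so sequence is shown for bins that hold an annotated gene start. Of all 36999 called bins 275 (0.743%) held one, and of the 2352 called in all 3 KO lists 35 (1.49%). There were 3 such bins among the 4439 restored (0.0676%), 11 among the 553 removed (1.99%) and 6 among the 993 called in all 6 lists (0.604%). Below are 60 nt from RefSeq (GRCm38.p6) for 2 bins of each class, on the strand of the gene, from 10 nt before the annotated start. The class given is that of the bin that holds the start, not of the gene. As a gene, Fancl had 0, 1 and 0 bins in KO, and Rsrp1 was called in all 6 lists. The capital marks the annotated first base of the transcript.
Malat1, called in all 6 lists, chr19:5802623-5802682, minus strand: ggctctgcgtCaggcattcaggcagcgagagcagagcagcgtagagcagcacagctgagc
Cyb5b, called in all 6 lists, chr8:107150651-107150710, plus strand: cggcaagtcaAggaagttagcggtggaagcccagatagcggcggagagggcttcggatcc
Fancl, restored, chr11:26387074-26387133, plus strand: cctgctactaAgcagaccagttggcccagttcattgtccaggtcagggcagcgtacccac
Hnrnpdl, restored, chr5:100039173-100039232, minus strand: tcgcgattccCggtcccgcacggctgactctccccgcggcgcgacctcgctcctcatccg
Rsrp1, removed, chr4:134923615-134923674, plus strand: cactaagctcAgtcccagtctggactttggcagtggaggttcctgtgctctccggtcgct
Ier3, removed, chr17:35821703-35821762, plus strand: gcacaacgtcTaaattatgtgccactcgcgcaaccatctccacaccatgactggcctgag
The annotated first base was A in 6 of the 11 removed starts, 1 of the 3 restored, 3 of the 6 called in all 6 lists, and 34.4% of all 32851 annotated starts. Among the 10145 annotated starts of genes with a bin in any of the 6 lists it was A in 28.3%. The letters GGAC, a common form of the METTL3 and METTL14 motif, stood in the first 50 nt of 3 of the 11 removed starts, of which Rsrp1 is shown, and of none of the restored or of those called in all 6 lists. They stood in 18.9% of all annotated starts, and the reverse complement GTCC in 17.4%. In the starts of genes with a bin in any of the 6 lists each stood in 20.3%. A missing match says only that these letters are not in this window. The Rsrp1 start was also called in all 3 WT lists, and the Ier3 start in none of them.

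Cells with METTL14 put back had more m6A peaks, in more genes, and a higher mean number of bins per called gene. The KO+WT lists held 14247, 17185 and 14187 peaks, and the KO lists 6328, 8411 and 8593. Every KO+WT list was longer than every KO list. Genes with a peak numbered 6219, 7085 and 6317 with METTL14 and 3697, 4690 and 4733 without it, again with no overlap. Called genes carried 2.32 ± 0.0935 bins in KO+WT and 1.77 ± 0.0547 in KO (mean ± SD, n = 3 lists each). Each of these 3 differences gave p = 0.1 by a two-sided exact permutation test, which is the smallest p that 3 lists against 3 can give. Agreement between replicates was moderate: 43.6%, 36.2% and 43.8% of the bins of a KO+WT list were in both other KO+WT lists, against 37.2%, 28.0% and 27.4% in KO. Depth per library is unknown, so a missing call is not the absence of m6A, and in bulk samples fewer cells of a type and less RNA per cell cannot be told apart.

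**Figure D1:**
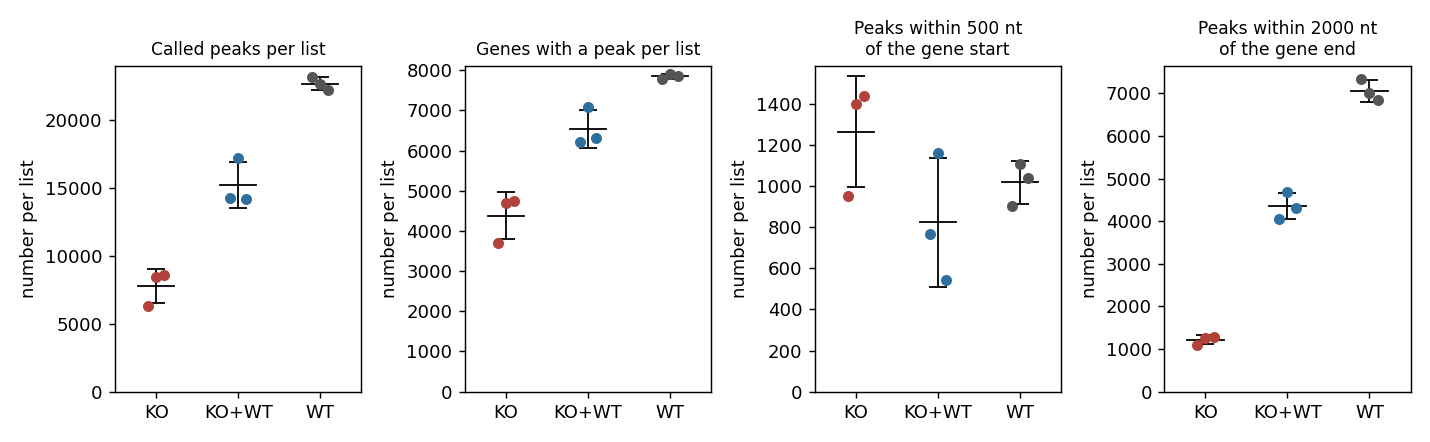
Numbers per list (y axes) of called peaks, genes with a peak, peaks within 500 nt of the gene start and peaks within 2000 nt of the gene end, for KO, KO+WT and WT (x axes). Points are lists and bars are mean ± SD (n = 3). The KO+WT lists lie above the KO lists in each panel except the one for gene starts, where their ranges overlap.

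Most of the restored bins lay in transcripts that the knockout also had called somewhere else. Of the 4439 restored bins, 1203 (27.1%) were in genes with no KO bin, and 1994 (44.9%) were in a gene with a KO bin but more than 1000 nt from it. Only 585 (13.2%) lay within 200 nt of a KO bin. The 4439 bins fell in 2541 genes, of which 1535 had 1 restored bin and 380 had 3 or more, and adjoining bins formed 810 runs of 2 or more. The removed bins were fewer and more scattered, with 382 of 448 genes holding 1. A further 993 bins in 635 genes were called in all 6 lists. Just outside the threshold lay 386 bins called in 3 KO+WT lists and 1 KO list, and 4496 called in 2 KO+WT lists and no KO list. Leaving out KO replicate 1, 2 or 3 in turn raised the removed bins to 1321, 937 and 917, since fewer lists were then required. Gene models that run across many other genes made some assignments uncertain: 8 such models, led by Gm20388 with 74 protein-coding genes inside it, held 240 of the restored bins.

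**Figure D2:**
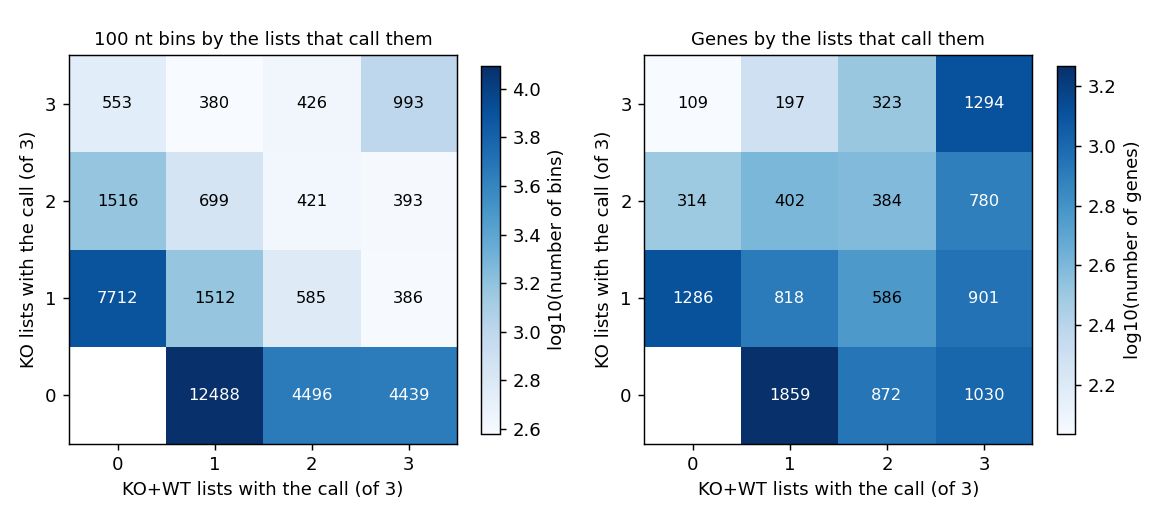
Number of 100 nt bins (left) and genes (right) by how many of the 3 KO+WT lists (x axis) and of the 3 KO lists (y axis) call them, with colour on a log10 scale. The lower right cells are the restored class, 4439 bins and 1030 genes, and the upper left cells the removed class, 553 bins and 109 genes.

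Most of the bins called again with METTL14 back were also called in unmodified wild-type cells. Choosing the classes did not use the WT lists. Of the restored bins, 92.3%, 91.9% and 91.9% were called in the 3 WT lists, and 3712 (83.6%) in all of them. Only 83 restored bins (1.87%) were in no WT list. Removed bins were seldom called there, at 15.2%, 18.4% and 19.2%, with 69.4% in no WT list. Bins called in all 6 lists stood at 90.9 ± 1.96% in WT (mean ± SD, n = 3 lists), and bins called in any of the 6 lists at 40.5 ± 0.115%. Just outside the threshold, 85.6 ± 0.598% of the bins called in 3 KO+WT lists and 1 KO list were in a WT list, and 67.4 ± 1.35% of those called in 2 KO+WT lists and no KO list. The median restored bin ranked at the 56.2, 55.8 and 55.7 percentile of enrichment within the WT lists, and the median removed bin, where called, at 31.4, 32.6 and 30.4. With 1 KO+WT list left out, the WT share of restored bins was 84.9% to 87.1%.

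Lines carrying the arginine mutants called fewer of the same bins than WT did. Restored bins were called in 76.3%, 72.8% and 63.6% of cases in the KO+5RK lists, and in 56.4%, 53.7% and 63.0% in the KO+13RK lists. Every list of either mutant was below every WT list. The ranges of the mutants themselves did not overlap, though by a small margin, with 63.6% the lowest in KO+5RK and 63.0% the highest in KO+13RK. Bins called in all 6 lists fared better, at 84.4 ± 5.31% in KO+5RK and 81.4 ± 2.03% in KO+13RK. Removed bins were called in 9.34 ± 1.56% and 13.6 ± 0.455%. These lists differ in length, which moves every such share, and its part in these values was not tested.

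**Figure D3:**
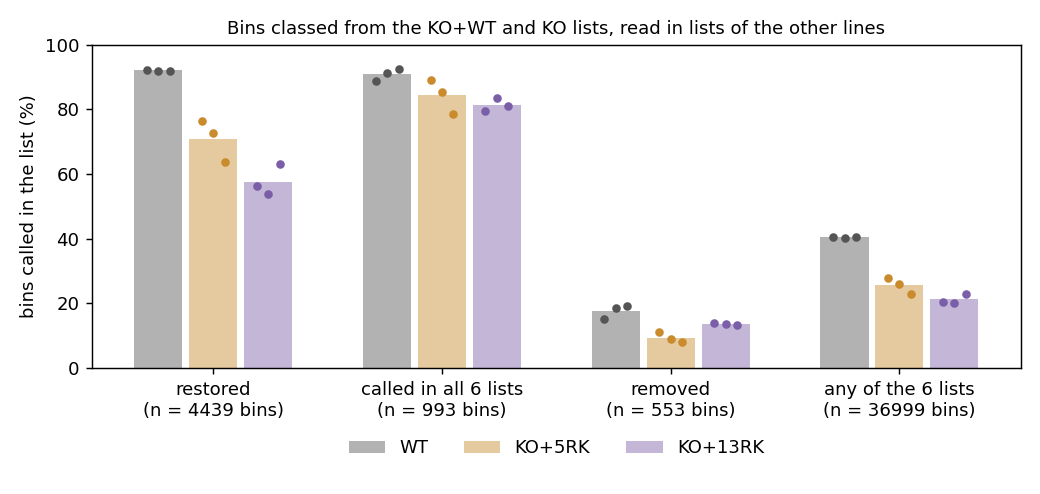
Percentage of bins of each class (y axis) that were called in the lists of WT, KO+5RK and KO+13RK, which the classes did not use. Bars are means and points the 3 lists. Restored bins stand near 92.0% in WT against 17.6% for removed bins.

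With METTL14 back, more peaks lay toward the ends of genes. Within 2000 nt of the gene end lay 4058, 4679 and 4321 peaks in KO+WT and 1105, 1268 and 1285 in KO, 3.57 times as many on average. Within 500 nt of the gene start the numbers were 765, 1161 and 544 in KO+WT and 953, 1400 and 1440 in KO. The end counts did not overlap (two-sided exact permutation test, p = 0.1, the smallest possible), while the start counts did (exact p = 0.2). As shares of the placed peaks, 5.94 ± 1.61% lay near the start in KO+WT and 18 ± 1.01% in KO, and 32.1 ± 1.91% and 17.6 ± 1.63% near the end (mean ± SD, n = 3; exact p = 0.1 for both). The end window sets the size of that difference: within 500 nt of the end the shares were 9.53 ± 0.817% and 4.87 ± 0.443%, and within 1000 nt 18 ± 1.11% and 9.46 ± 1.01% (exact p = 0.1 for both). The classes showed the same contrast, described without a test because they come from these lists. Of 3982 restored bins with a position, 37 (0.929%) were near a start and 1480 (37.2%) near an end. Of 488 removed bins 128 (26.2%) were near a start and 67 (13.7%) near an end. Over all placed bins of the 6 lists the shares were 9.23% and 27.9%. Placed bins called in all 3 KO lists stood at 21.9% and 15.9%, near the removed bins, and those in all 3 KO+WT lists at 4.49% and 33.1%.

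**Figure D4:**
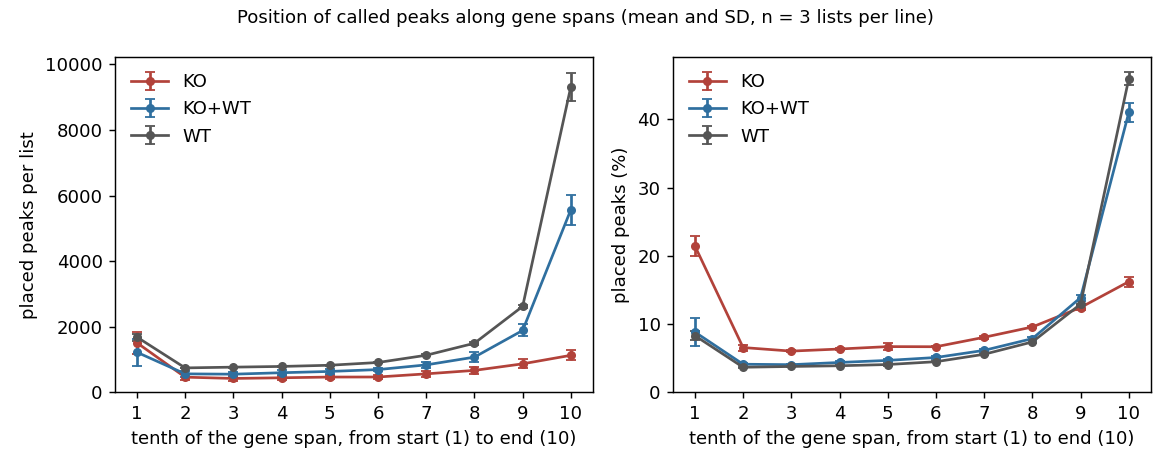
Placed peaks by position along the gene span, cut into 10 equal stretches from start (1) to end (10), as numbers per list (left) and as percentages (right), for KO, KO+WT and WT, with mean and SD of 3 lists. In the last stretch the shares are 41.0% in KO+WT, 46.0% in WT and 16.2% in KO. Mean numbers there are 5569 in KO+WT, 9324 in WT and 1127 in KO. In the first stretch the KO share is the highest of the lines.

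The same positions were read within the 1294 genes called in all 6 lists, so that both lines are compared over the same genes, a check chosen after seeing the data. There the near-end peaks numbered 945, 988 and 974 in KO+WT and 448, 407 and 428 in KO, 2.27 times as many. Near-start peaks in the same genes numbered 309, 401 and 241 in KO+WT and 413, 522 and 529 in KO. Neither pair of ranges overlapped (exact permutation p = 0.1 for each, the smallest possible). Of these 1294 genes, 614 (47.4%) held a restored bin and 660 (51.0%) had no bin that all 6 lists shared, and 199 had a restored and a removed bin.

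Nanog, a transcription factor of the naive pluripotent state, had different bins in the 2 lines within 1 transcript. It was called in all 6 lists, with 2 bins in each KO+WT list and 4, 2 and 4 in KO. The KO+WT bins were chr6:122713290-122713389 and chr6:122713490-122713589, centred 1294 and 1094 nt before the gene end. Both were restored and both were called in all 3 WT lists. The bins that all 3 KO lists shared lay 150 and 250 nt after the gene start, and no KO+WT or WT list called them. The restored bins were weak calls: the first of them ranked at the 6.03 percentile of enrichment within the KO+WT lists. By comparison, the removed bin at 150 nt ranked at 70.8 within the KO lists. Where only bins at or above the median enrichment were kept, the log2 change of Nanog bins went from -0.49 to -1.19. So the gene-level call was equal in the 2 lines while no bin was shared.

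Other pluripotency genes also held restored bins. Esrrb, an orphan nuclear receptor, had 9, 14 and 10 bins in KO+WT and 11, 9 and 8 in KO, ranges that overlap. Its 6 restored bins, all called in all 3 WT lists, lay in 3 adjoining pairs, at 361 and 261 nt, at 2561 and 2461 nt, and at 51261 and 51161 nt before the gene end, and no Esrrb bin was called in all 6 lists. Klf4 and Sox2, both reprogramming factors, held 1 restored bin each, at 656 and 1106 nt before the gene end and in all 3 WT lists. Their bins overlapped between the lines: 1, 2 and 2 in KO+WT against 0, 2 and 3 in KO for Klf4, and 2, 4 and 3 against 3, 0 and 2 for Sox2. The restored bin of Sox2 ranked at the 5.60 percentile of enrichment in KO+WT, and the bin beside it was called in 1 KO list. Myc had 2, 2 and 1 bins with METTL14 and 1, 0 and 0 without it, which did not pass limma (log2 fold change 1.06 ± 0.36 SE, adjusted p = 0.110).

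Bins called in all 6 lists lay in 635 genes, Mat2a and Malat1 among them. Mat2a, which makes the methyl donor S-adenosylmethionine, had 5, 6 and 4 bins in KO+WT and 4, 5 and 4 in KO. Its 4 adjoining bins from chr6:72432900-72433299, 153 to 453 nt before the gene end, were called in all 6 lists and in all 3 WT lists. Malat1, a nuclear long noncoding RNA, had 22, 19 and 21 bins with METTL14 and 21, 22 and 23 without it, with 19 called in all 6 lists. Mettl14 itself had no bin in any of the 6 lists, so the lists give no check of the knockout, and Mettl3 had 1, 0 and 0 bins in KO+WT and 0, 2 and 1 in KO.

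Among whole genes, the restored ones with the most bins had none in the knockout and many in both KO+WT and WT. Orc3, a subunit of the origin recognition complex, had 8, 9 and 9 bins in KO+WT and 10, 10 and 9 in WT. Slc7a1, a cationic amino acid transporter, had 7, 8 and 9 in KO+WT and 7, 9 and 5 in WT, and 7 of them formed 1 unbroken run over chr5:148331411-148332110. Lncenc1, a long noncoding RNA of embryonic stem cells, had 8 in each KO+WT list and 7, 5 and 6 in WT. The others of the 8 with the most bins were Ap1g1, an adaptor of vesicle coats, Trps1, a zinc finger repressor, Zfyve28, Hs6st1, a heparan sulfate sulfotransferase, and Rictor, which defines TOR complex 2, and no list of theirs in KO+WT had fewer than 5 bins. Of all 1030 restored genes, 815 had a restored bin and 215 had none. In the WT lists 91.7 ± 0.593% of restored genes were called, against 37.0 ± 3.71% of removed genes and 63.8 ± 0.409% of all 11155 (mean ± SD, n = 3). Leaving out 1 library moved the removed genes from 109 to 174, 186 and 164 without KO+WT replicate 1, 2 and 3, and to 258, 191 and 192 without KO replicate 1, 2 and 3.

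**Figure D5:**
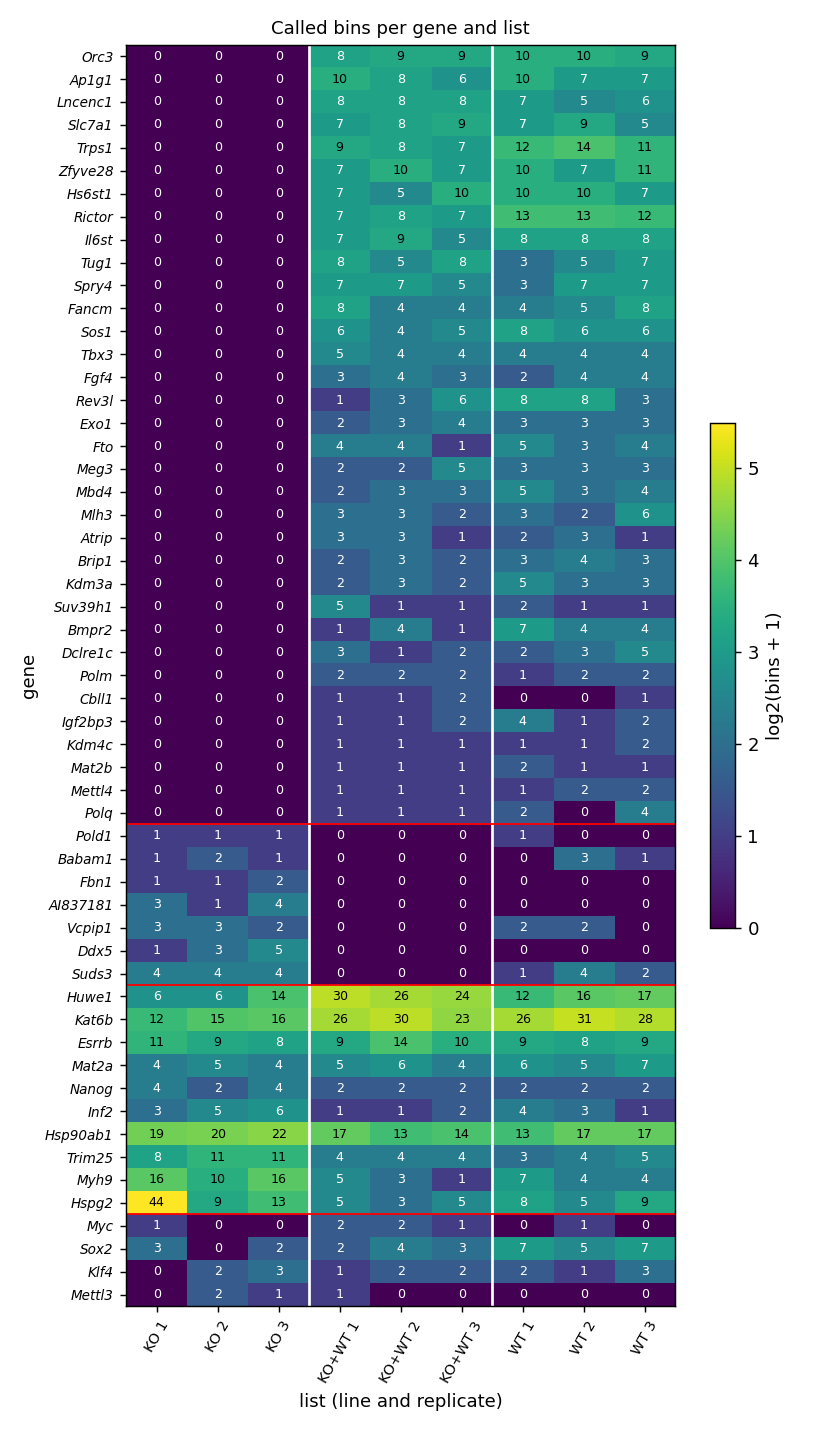
Called bins per list (columns: KO, KO+WT and WT replicates) for the named genes (one per line of the grid), coloured by log2(bins + 1). From top to bottom, red lines part restored genes, removed genes, genes called in all 6 lists and the remaining named genes. Restored genes are at 0 in KO and above 0 in each KO+WT list, and most were called in all 3 WT lists.

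Bins per gene were then compared by limma on log2(bins + 1) over 6006 genes called in at least 3 of the 6 lists. With METTL14 back, 1549 genes had more bins (25.8%) and 141 had fewer (2.35%) at an adjusted p below 0.05, and the median gene was higher by 0.53 on the log2 scale. Of the higher calls 1011 were restored genes, and of the lower calls 109 were removed genes. These passed the filter through 1 line and so had to differ, which makes their own calls no evidence. Among the other 4867 genes tested, 538 were higher (11.1%) and 32 lower (0.657%). These are the shares set beside the gene lists that follow, whose restored and removed members are left out of the limma counts. Part of that selection remains. The 901 genes called in 3 KO+WT lists and 1 KO list, and the 780 called in 3 and 2, also met the filter through KO+WT alone. In reverse, 197 and 323 met it through KO alone. Of the first kind are Fancl, Usp1, Xrcc6, Trp53bp1, Ercc2, Ercc6, Msh6, Nr5a2, Axin1, Fgfr1, Lrp6, Wtap and Rian, named below, so their calls are not free of it. With each list cut to its 6328 peaks of smallest p, 583 genes were higher and 394 lower among 3938, so the share of higher calls went from 91.7% to 59.7% and the median change to 0. Higher calls numbered 915, 1010 and 1007 without KO replicate 1, 2 and 3, and lower calls 257 without KO replicate 1.

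Lists of DNA repair genes were examined because the study's title names DNA repair. Of the interstrand crosslink repair genes, 20, 21 and 19 had a peak in the KO+WT lists and 8, 10 and 10 in KO. Restored members were Fancm, the translocase that anchors the Fanconi core complex, with 8, 4 and 4 bins, Brip1, a helicase partner of BRCA1, with 2, 3 and 2, Atrip, the partner of the ATR kinase, with 3, 3 and 1, and Rev3l, the catalytic part of polymerase zeta, with 1, 3 and 6, together with Wdr48. These are 5 of 26 members with a peak (19.2%), beside 9.23% over all genes. Of 13 other members tested by limma, 2 were higher, Fancl and Usp1 (15.4%, beside 11.1% over all genes), and none lower. With equal list lengths neither passed, and Ube2t was lower. Of the 5 restored members, Fancm and Brip1 were then still called in at least 3 of the 6 lists, and Atrip, Rev3l and Wdr48 were not. Rev3l had no bin that was called in all 3 KO+WT lists.

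End joining genes had 9, 9 and 8 members with a peak in KO+WT and 3, 4 and 4 in KO. Dclre1c, the Artemis nuclease, Polm and Polq, both DNA polymerases, were restored, with 3, 1 and 2, 2 in each, and 1 in each KO+WT list. These are 3 of 10 members with a peak (30%, beside 9.23% over all genes). With equal list lengths none of the 3 was called in at least 3 of the 6 lists. Of 5 other members tested, limma called 1 higher, Xrcc6 (Ku70) (20%, beside 11.1% over all genes), and none lower. With equal list lengths Xrcc6 did not pass. For homologous recombination the members with a peak were 21, 28 and 22 against 18, 17 and 18. The nuclease gene Exo1 was restored, 1 of 31 members (3.23%, beside 9.23% over all genes). Babam1, a BRCA1-A complex subunit, was removed, also 1 of 31 members, beside 0.977% removed over all genes. Of 21 other members tested, 3 were higher, Brca1 and Trp53bp1 among them (14.3%, beside 11.1% over all genes), and none lower. With equal list lengths none of these passed, and Rnf168 was lower. Exo1 was then still called in at least 3 of the 6 lists, and Babam1 was not. Brca1 had 2 restored bins and 1 removed bin.

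Excision and mismatch repair genes had 19, 23 and 20 members with a peak in KO+WT and 11, 17 and 16 in KO. Msh6, a mismatch recognition protein, had 16, 19 and 15 bins with METTL14 and 0, 2 and 3 without it (limma log2 fold change 2.94 ± 0.58 SE, adjusted p = 0.0244). Its 13 restored bins lay between chr17:87984651-87986950, at 3992 to 6192 nt before the gene end, and each was called in all 3 WT lists. Mbd4, a glycosylase, had 2, 3 and 3 bins and Mlh3, a mismatch repair protein, had 3, 3 and 2, and both were restored. These are 2 of 27 members with a peak (7.41%, beside 9.23% over all genes). With equal list lengths neither was called in at least 3 of the 6 lists. Pold1, the catalytic subunit of polymerase delta, was removed, with 1 bin in each KO list. It is 1 of 27 members with a peak, beside 0.977% removed over all genes. Of 18 members neither restored nor removed, limma called 3 higher, Msh6, Ercc2 and Ercc6 (16.7%, beside 11.1% over all genes), and none lower. With equal list lengths Msh6 passed, Ercc2 and Ercc6 did not, and Xrcc1 was lower.

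Pluripotency factors had 22, 20 and 19 members with a peak in KO+WT and 14, 15 and 17 in KO. Il6st, the signal-transducing receptor of leukemia inhibitory factor, had 7, 9 and 5 bins, Tbx3, a T-box factor of the naive state, 5, 4 and 4, and Fgf4, a secreted growth factor, 3, 4 and 3, all against 0 in KO. These 3 of 25 members were restored (12%, beside 9.23% over all genes). With equal list lengths Tbx3 and Fgf4 were still called in at least 3 of the 6 lists, and Il6st was not. Of 18 other members tested, limma called Nr5a2 and Tcl1 higher (11.1%, the share over all genes) and none lower, and with equal list lengths neither passed. Signalling genes of the TGF-beta, FGF and Wnt pathways had 27, 26 and 24 members with a peak against 11, 19 and 18. Restored members were Spry4, a feedback inhibitor of receptor tyrosine kinases, with 7, 7 and 5 bins, Sos1, a RAS exchange factor, with 6, 4 and 5, the signal transducers Smad2 and Smad5, Fgf4, and Bmpr2, a BMP receptor, with 1, 4 and 1 (adjusted p = 0.0702, not passed). These are 6 of 34 members with a peak (17.6%, beside 9.23% over all genes). With equal list lengths Bmpr2 alone of them was called in fewer than 3 of the 6 lists. Of 20 other members tested, 4 were higher, Axin1, Fgfr1, Fgfr2 and Lrp6 (20%, beside 11.1% over all genes), and none lower. With equal list lengths none of the 4 passed, and 2 members were lower, Fzd7 among them. The Fgfr2 model spans 29 other protein-coding genes, so its bins are uncertain.

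Of 32 histone methylation enzymes, 31 had a peak in each KO+WT list and 22, 26 and 26 in KO. The demethylase genes Kdm3a, with 2, 3 and 2 bins, and Kdm4c, with 1 in each list, were restored, as was Suv39h1, a heterochromatin methyltransferase, with 5, 1 and 1 (adjusted p = 0.100, not passed). These are 3 of 32 members (9.38%, beside 9.23% over all genes). With equal list lengths Suv39h1 was called in fewer than 3 of the 6 lists. Of 28 other members tested, limma called 5 higher, Kdm5a, Kmt2b, Mtf2, Nsd2 and Suz12 (17.9%, beside 11.1% over all genes), and none lower, and with equal list lengths Suz12 alone of these passed. Of 13 m6A writers and partners the members with a peak were 11, 8 and 7 against 6, 4 and 6, with Cbll1 and Mettl4 restored. These are 2 of 12 members with a peak (16.7%, beside 9.23% over all genes). With equal list lengths Cbll1 was called in fewer than 3 of the 6 lists. Wtap was higher, 1 of 7 other members tested (14.3%, beside 11.1% over all genes), and did not pass with equal list lengths. Readers and erasers overlapped, with 9, 10 and 7 against 6, 7 and 9, and Fto, an m6A demethylase, with 4, 4 and 1 bins, and Igf2bp3 were restored, while limma called none of 8 other members. These restored genes are 2 of 12 members with a peak (16.7%, beside 9.23% over all genes). With equal list lengths Fto was called in fewer than 3 of the 6 lists.

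Long noncoding RNAs had 6, 9 and 7 members with a peak in KO+WT and 5, 4 and 3 in KO, and Tug1, with 8, 5 and 8 bins, and Meg3, with 2, 2 and 5, were restored. These are 2 of 9 members with a peak (22.2%, beside 9.23% over all genes). Neat1 and Rian were higher by limma, 2 of 5 other members tested (40%, beside 11.1% over all genes), and did not pass with equal list lengths. In the S-adenosylmethionine list the members with a peak numbered 4, 6 and 6 against 2, 4 and 3, and Mat2b, the regulatory subunit beside Mat2a, was restored with 1 bin in each KO+WT list, while limma called none of 3 other members. Mat2b is 1 of 8 members with a peak (12.5%, beside 9.23% over all genes). With equal list lengths it was called in fewer than 3 of the 6 lists. Cell cycle and p53 genes overlapped between the lines, 18, 19 and 17 against 14, 19 and 17, with none restored and Cdc25a and Mdm2 higher, 2 of 19 (10.5%, beside 11.1% over all genes). With equal list lengths they had fewer members with a peak in KO+WT, 9, 12 and 8 against 14, 17 and 14 (exact permutation p = 0.1), with Cdc25a higher and Ccne1 lower. Over the 14 lists, the numbers of members with a peak did not overlap between lines in 9, each higher in KO+WT at exact permutation p = 0.1. Genes with a peak over all genes did not overlap either, at 6540 ± 474 in KO+WT and 4373 ± 586 in KO (mean ± SD, n = 3). Non-overlap in a list is therefore not particular to its members. With equal list lengths the members with a peak did not overlap in 3 of the lists. They were higher in KO+WT for the signalling genes (21, 21 and 19 against 11, 17 and 14). Lower were the cell cycle genes above and fibroblast genes (1, 0 and 0 against 3, 3 and 4).

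Markers of other cells were nearly absent from the peaks of both lines. Embryonic stem cell markers gave 27 to 33 bins in KO+WT lists and 22 to 29 in KO, and 8 of 9 primed and early lineage markers had no bin in any of the 6 lists. Of 9 fibroblast markers, 1 to 2 had a bin in KO+WT lists and 1 to 3 in KO, and Col1a2, Col3a1, Postn, Dcn and Lum had none. The longer lists of primed and early lineage genes gave 1, 5 and 1 members with a peak against 1, 3 and 1, and of fibroblast genes 2, 2 and 4 against 3, 3 and 4. Fbn1, a matrix protein, was removed (1, 1 and 2 bins in KO). It is 1 of 6 fibroblast members with a peak, beside 0.977% removed over all genes. A peak call is not an expression level.

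Among genes called in both lines, more had a higher number of bins with METTL14 back than a lower one. Within the 1294 genes called in all 6 lists, 237 had more bins in every KO+WT list than in any KO list (18.3%), and 20 had fewer (1.55%). By limma 169 of the 1294 were higher and 13 lower. Kat6b, a histone acetyltransferase, had 26, 30 and 23 bins against 12, 15 and 16, with 9 restored bins and 9 shared by all 6 lists (limma adjusted p = 0.0181; 0.109 with equal list lengths). Huwe1, a ubiquitin ligase, had 30, 26 and 24 against 6, 6 and 14 (limma adjusted p = 0.0350; 0.123 with equal list lengths). The largest rises otherwise were the long gene models Gm20388, Fgfr2 and Gm26904. In the other direction, Trim25, an antiviral ubiquitin ligase, fell from 8, 11 and 11 bins in KO to 4 in each KO+WT list (limma log2 fold change -1.12 ± 0.13 SE, adjusted p = 0.00586), and WT had 3, 4 and 5. Myh9, non-muscle myosin heavy chain, fell from 16, 10 and 16 to 5, 3 and 1 (limma adjusted p = 0.0399), and Inf2, a formin, from 3, 5 and 6 to 1, 1 and 2 (limma adjusted p = 0.0383). Hsp90ab1, a cytosolic chaperone, had 19, 20 and 22 bins in KO and 17, 13 and 14 in KO+WT, with 13 bins in all 6 lists, and missed the threshold (limma adjusted p = 0.0508; 0.0115 with equal list lengths). Hspg2, the basement membrane proteoglycan perlecan, had 44, 9 and 13 against 5, 3 and 5 and also missed it (limma adjusted p = 0.116).

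Among removed genes, 1 locus stood far above the others. Gm47283, at chrY:90811139-90813938 on the plus strand, had 25, 23 and 23 bins in KO and none in KO+WT, and it held 22 of the 553 removed bins. It had 25, 25 and 24 bins in WT and none in any KO+5RK or KO+13RK list. Uty, another gene of that chromosome, had 1 and 2 bins in KO+WT replicates 1 and 3 and none in KO or WT. Without chromosome Y the removed bins numbered 531, and the restored bins were unchanged at 4439. Next came Suds3, a subunit of the Sin3 corepressor, with 4 bins in each KO list and 1, 4 and 2 in WT, Ddx5, an RNA helicase, with 1, 3 and 5, Vcpip1, a deubiquitinase, with 3, 3 and 2, and AI837181 with 3, 1 and 4. Neither Ddx5 nor AI837181 had a bin in any WT list.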

How the data were processed

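The 15 deposited peak lists, 1 for each immunoprecipitated library, were used, and the lists were tied to samples by the sample titles. Per the labels' protocols, purified messenger RNA was broken into short pieces and pulled down with a polyclonal antibody against m6A, and libraries kept the strand. STAR 2.5.3a, kallisto 0.43.0 and the build GRCm38 stand in the submitters' processing notes. How peaks were called is a step not given in the sources used here. Deposited lists have no header and give bins of 100 nt in Ensembl genes with an enrichment value, an authors' score (0.31 to 5.82, scale not stated), and a deposited p-value and q-value per bin (every q under 0.05). These were used only to rank or filter bins within a list. Every list is named for 1 replicate and was compared as such. Read depth was unknown, and intervals for counting error were therefore not computed.

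Bins were matched exactly by position and strand. A table of gene names gave a symbol to 99.8% of the 11155 genes and left 27 without. Distances ran from the centre of a bin to the RefSeq gene start or end of GRCm38.p6, which placed 90.1% of bins. Near the start means within 500 nt and near the end within 2000 nt. Means of 3 lists were compared by two-sided exact permutation tests. Bins per gene, as log2(bins + 1) with a pseudocount of 1, were compared by limma 3.58.1 (R 4.3.3; trend and robust) over genes called in at least 3 of the 6 lists, with Benjamini-Hochberg adjustment over all genes tested and a threshold of 0.05. Adjusted p-values in the text are limma's. Tables were made in Python 3.11.15 with pandas 2.3.3, and the tests were tested on simulated data.

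The members and the 14 gene lists were chosen with earlier results of these data known. Named genes were Mettl14, Mettl3, Mat2a, Nanog, Sox2, Klf4, Esrrb and Myc, up to 4 restored and 2 removed members of each list, the 8 restored and 5 removed genes with the most bins, and, of genes called in all 6 lists, the 5 largest rises and 5 largest falls in mean bins whose lists did not overlap. List members that limma called are also named, except a few that are not reported here, and Malat1, Uty and the genes whose starts are shown were chosen after their values were seen. The labels do not say that replicates were separate cultures, so a p-value reflects the spread of these libraries alone, which may be technical. No 2 of the 6 lists shared more than 4 identical entries, so none was deposited under 2 names. Replicate numbers were not taken as pairs, because deviations of same-numbered lists correlated at -0.00763, 0.0119 and -0.00347 over 11155 genes. The alternatives were a q of 0.005, enrichment of at least 1.33 (the median over the 6 lists), equal list lengths (6328 peaks), leaving out each replicate, the replicate block, no filter on lists, a pseudocount of 0.5, windows of 200 or 1000 nt at the start and of 500 or 1000 nt at the end, at least 2 lists against 0, merged regions, a gap of 200 nt to the other line's bins, and, added after seeing the data, leaving out chromosome Y and leaving out long gene models.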

Additional observations from a re-analysis of the deposited data

How the results depend on the processing

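Of 136 recomputed comparison values, 97 stayed within the range set for them and 39 moved, and of 656 recomputed values of named genes 104 lost the threshold, 11 gained it and 4 changed sign. A stricter q of 0.005 left 2313 restored and 286 removed bins and a WT share of restored bins of 93.0%. Enrichment at or above the median value left 1370 restored bins, 132 removed bins, 995 genes higher and a WT share of 84.5%. Equal list lengths gave 1856 restored and 801 removed bins, 500 restored genes, 325 removed genes, 583 genes higher and 394 lower. They also gave a WT share of 98.4% and 1 gene list higher in KO+WT without overlap, with 2 lower. At least 2 lists against 0 gave 8935 restored bins, 2069 removed bins, 1902 restored genes and 423 removed genes. Without a filter on lists 51 genes were lower, and without long gene models the WT share was 91.7%. The replicate block gave 624 genes higher and 75 lower, and the exact test over 3 pairs cannot go below p = 0.25. Leaving out 1 replicate gave 632 to 1321 removed bins, 164 to 258 removed genes, 915 to 1383 genes higher, 115 to 257 genes lower and a WT share of 84.9% to 91.9%. Members with a peak changed sign (KO+WT minus KO) at -0.333 for primed markers under the stricter q and at -0.667 for them with equal lengths and without KO+WT replicate 2 (-0.667 to 1.33 over the 6 lists left out), at -1 for pluripotency factors at or above the median, and with equal lengths at -1 for homologous recombination, -0.667 for excision repair, -5.33 for the cell cycle and -0.333 for S-adenosylmethionine genes. The log2 change of bins turned to -0.11 for Mat2a and -0.79 for Esrrb at or above the median, to -0.76 for Esrrb with equal lengths and to -0.40 for Klf4 without KO replicate 1 (-0.40 to 0.60 over the 6 lists left out). The cause of these shifts was not tested, apart from calls lost where fewer peaks or lists were used. Depth per library is unknown, so the share of missing calls that deeper libraries would fill cannot be told.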

Other observations

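Restored bins were spread over the chromosomes. They made up 9.07% to 15.2% of the called bins on each autosome and on the X chromosome, highest on chromosome 8 and lowest on X, and none of the 55 called bins of the mitochondrial genome was restored or removed. Of the restored bins whose gene has a RefSeq gene type, 97.7% lay in protein-coding genes, and 83 lay in long noncoding RNAs. For the removed bins, counted the same way, the values were 97.4% and 7. Over all bins called in any of the 6 lists they were 95.7% and 1029. In the KO+WT lists the median restored bin ranked at the 48.8, 47.5 and 47.1 percentile of enrichment.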
